A study of Drosophila melanogaster with 2 samples.

Results

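To follow the machinery that carries proteins and RNAs between nucleus and cytoplasm, 37 genes of the nuclear pore and of nucleocytoplasmic transport were examined among the 13623 genes of a nuclear RNA-seq table. The table compares affinity-purified nuclei of neural stem cells (NSCs) and of neurons from *Drosophila melanogaster* embryos. Members were chosen by name: 16 rows whose symbol is Nup followed by a digit, and 21 of 23 further listed symbols (Ran GTPase regulators, importins, exportins and other pore proteins). Ran and Sec13 of that list are spelled ran and sec13 in the table, so the case-sensitive choice left them out, and they are given separately. The symbol Cas stands here for the export receptor of importin alpha and not for castor, which the table lists as cas.

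NSC nuclei came from embryos 5 to 7 h after egg laying of a line with Sca-Gal4/cyo, and neuron nuclei from embryos 12 to 14 h after egg laying of a line with Elav-Gal4. Both lines carried the transgene UAS-3xFLAG-blrp-mCherry-RanGap, whose product holds RanGap behind FLAG epitopes, a biotin acceptor peptide (blrp) and a red fluorescent protein, and by the study's methods it also expresses the biotin ligase BirA. The balancer chromosome cyo makes the NSC embryos a mix of genotypes. The drivers differ: scabrous (sca) drives the tag in NSCs and elav in neurons. Tagged nuclei were pulled from homogenates of pooled whole embryos with anti-FLAG beads, and 1 library was sequenced per cell type. There is therefore no replicate, no test and no SD, each difference is one between these 2 libraries, and cell type, embryo age and driver cannot be told apart. Values are FPKM (mapped fragments scaled to transcript length in kilobases and to 1000000 fragments in all), a level that is divided by transcript length and so can be set side by side between genes. In bulk nuclei, fewer cells that express a gene and less RNA per nucleus cannot be told apart either.

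The nuclear pore complex is a ring-shaped channel through the nuclear envelope. A scaffold of outer, inner and membrane rings holds a central channel of proteins rich in phenylalanine-glycine repeats, with filaments on the cytoplasmic side and a basket on the nuclear side. Importins and exportins ferry cargo through it and take their direction from the small GTPase Ran, which is charged with GTP at chromatin by its exchange factor (Bj1, called RCC1 in vertebrates) and discharged in the cytoplasm by RanGap. Cells that divide reassemble their pores after each mitosis and also use several of these factors in building the spindle.

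Most of the genes were lower in neurons. The change of a gene was taken as the log2 ratio of neuron to NSC FPKM after adding 1 FPKM to each, a scale on which differences of scarce genes come out too small, and a gene was compared if it had at least 1 FPKM in at least 1 library. All 37 members met this. A total of 25 were at least 2-fold lower in neurons, a call made for 16.6% of the 10158 genes compared, and 1 was at least 2-fold higher, a call made for 26.9% of genes. The remaining 11 lay within 2-fold. At a limit of 1.5-fold, 30 members were lower, against 27.8% of all genes, and 1 was higher, against 37.6%. The median change was -1.20 on the log2 scale over the members and 0.14 over all genes compared. By any amount, 34 of the 37 members were lower in neurons, and 4644 of the 10158 genes compared. Scaling each library to the same FPKM sum (TPM scaling) moved the median of all genes to 0.39 and reduced the members called lower to 16, against 11.8% of all genes, with 33.8% called higher. The members that then missed 2-fold were Kap-alpha3, Nup107, Nup153, Nup43, Nup54, Nup58, Nup75, RanBP3 and Ranbp21. Ranbp11 and Ranbp16, counted among the 34 lower members, then had a change slightly above 0. Below, a number in parentheses after the levels of a gene is its log2 change.

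**Figure D1:**
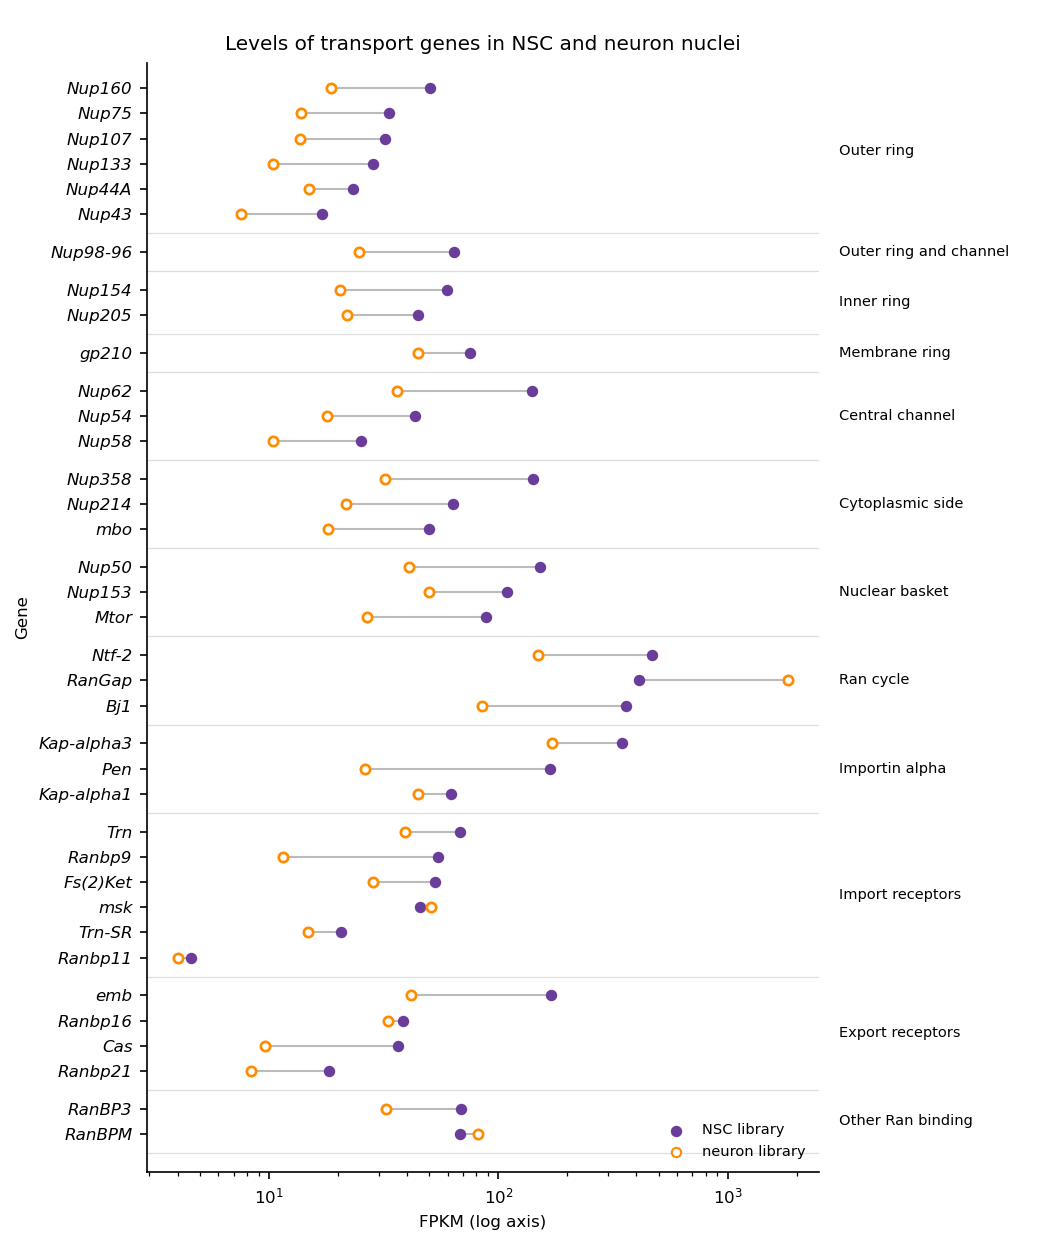
FPKM (log axis) of each of the 37 genes in the NSC library (filled points) and the neuron library (open points), grouped by role, with a grey line joining the 2 values of a gene. The open point lies to the left of the filled one for 34 genes, and RanGap stands apart with 1840 FPKM in neurons.

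The genes of the 19 pore proteins among the members were lower in neurons without exception, and 16 of them by at least 2-fold. This call was made for 16.6% of all genes compared. Their FPKM summed to 1240 for NSCs and to 444 for neurons, 2.80-fold less. These are levels of nuclear RNA, and protein was not measured. The levels ran from 17.0 FPKM (Nup43) to 151 FPKM (Nup50) in NSCs and from 7.51 FPKM (Nup43) to 49.7 FPKM (Nup153) in neurons. Genes of the channel, the cytoplasmic side and the basket, with Nup98-96 counted here, had a median change of -1.46 over 10 genes, all of them called. The 8 genes of the outer and inner rings had a median of -1.20, with 6 called. The ranges of these groups overlapped, from -2.12 to -1.12 and from -1.51 to -0.61. The groups also differed in NSC level, with medians of 76.1 FPKM and 32.7 FPKM. Of all genes, 28.2% were called lower from 30 to below 100 FPKM and 41% from 100 to below 300 FPKM. Whether the groups differ apart from level was not tested.

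On the cytoplasmic side, Nup358 (FBgn0039302, arm 3R), the giant filament protein that binds Ran and acts in SUMO conjugation in vertebrates, had 142 FPKM in NSC nuclei and 32.0 FPKM in neurons. This 4.44-fold lower level (log2 change -2.12) was the largest difference among the 19 pore genes of the list. Nup214, a repeat protein of the same face, had 63.4 FPKM in NSC nuclei and 21.6 FPKM in neurons (-1.51). Its partner mbo (members only, the fly Nup88), which holds back CRM1-dependent export, had 49.7 FPKM and 18.0 FPKM (-1.41).

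In the nuclear basket the same direction held. Nup50, which speeds the release of importin alpha from its cargo, had 151 FPKM in NSC nuclei and 40.7 FPKM in neurons (-1.87). Mtor (Megator, the fly Tpr), the coiled-coil protein that forms the basket's filaments, had 88.2 FPKM and 26.8 FPKM (-1.68). Nup153, which anchors the basket to the pore, had 109 FPKM and 49.7 FPKM (-1.12), and was the highest of the 19 pore genes in neurons.

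The genes of the central channel's repeat proteins, whose products work as a complex, differed in RNA level. Nup62 had 140 FPKM in NSC nuclei and 36.2 FPKM in neurons (-1.93), whereas its partners Nup54 (43.4 FPKM and 17.8 FPKM, -1.24) and Nup58 (25.2 FPKM and 10.4 FPKM, -1.20) stood below it in both libraries. The ratio of Nup62 to Nup54 FPKM was 3.24 in NSCs and 2.04 in neurons. Nup98-96, whose product is cut into a channel repeat protein and an outer ring protein, had 63.9 FPKM in NSC nuclei and 24.7 FPKM in neurons (-1.34).

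The outer ring, or Y complex, is the scaffold that is recruited to chromatin when pores re-form. Nup160 had 50.2 FPKM in NSC nuclei and 18.7 FPKM in neurons (-1.38), Nup133 had 28.4 FPKM and 10.4 FPKM (-1.37), Nup75 had 33.2 FPKM and 13.7 FPKM (-1.22), and Nup107 had 32.2 FPKM and 13.7 FPKM (-1.18). These 4 scaffold genes thus had like changes. Nup43 was the lowest of the 19 pore genes in each library, with 17.0 FPKM and 7.51 FPKM (-1.08). Nup44A, the fly Seh1, was the least different of the 6 outer ring members, with 23.3 FPKM in NSC nuclei and 14.9 FPKM in neurons (-0.61). Its product is known to work also in the GATOR complex at lysosomes, outside the pore. The sec13 gene, whose product serves the Y complex, the same GATOR complex and the COPII coat of secretory vesicles, had 73.5 FPKM in NSC nuclei and 90.0 FPKM in neurons (0.29). It was looked at because its spelling alone kept it off the list.

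Inner and membrane rings were represented by 3 genes. Nup154, the fly Nup155, had 59.7 FPKM in NSC nuclei and 20.4 FPKM in neurons (-1.51). Nup205 had 44.6 FPKM and 21.8 FPKM, and its change of -0.998 fell just short of the 2-fold call. The membrane protein gene gp210 had 75.4 FPKM and 44.7 FPKM (-0.74), so the only transmembrane member was not called. Outside the members, the gene of the pore membrane protein Ndc1, given again below, had 34.3 FPKM and 7.62 FPKM (-2.03).

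**Figure D2:**
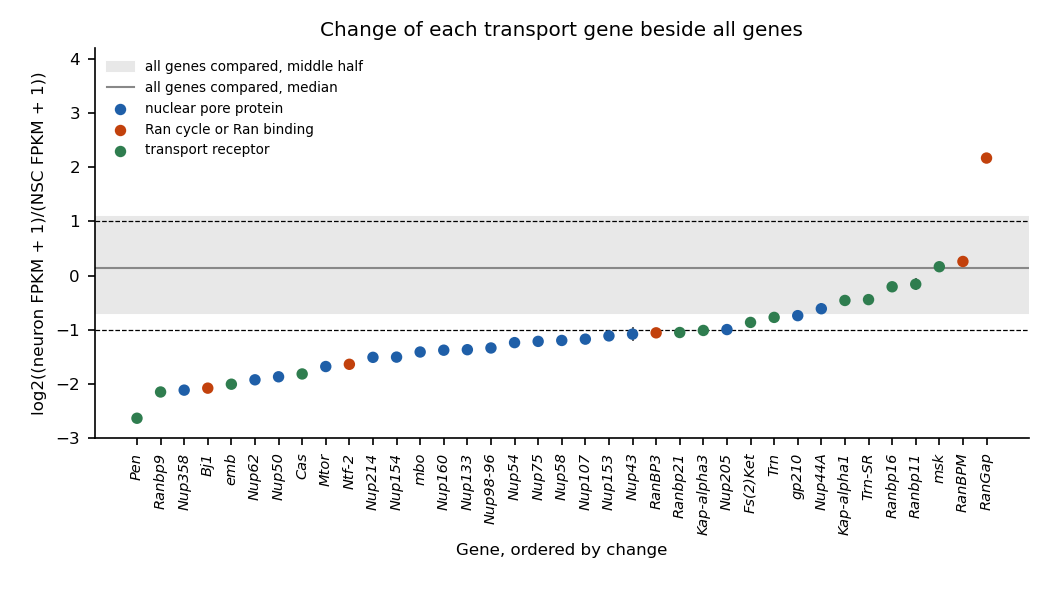
log2 change of each gene, ordered from the lowest, coloured by class. Vertical bars, mostly hidden by the points, are 95% intervals for counting error alone, dashed lines mark 2-fold, and the grey band and line are the range from the 25th to the 75th percentile and the median of all 10158 genes compared. Genes of pore proteins lie between -2.12 and -0.61, whereas those of transport receptors spread from -2.64 to 0.16.

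The genes of the Ran cycle were among the most abundant members in NSCs. Ntf-2, the carrier that returns Ran to the nucleus, had 466 FPKM in NSCs, the highest of the members there, and 149 FPKM in neurons (-1.64). Bj1 (FBgn0002638, arm 3L), the nucleotide exchange factor that charges Ran on chromatin, had 361 FPKM in NSC nuclei and 84.6 FPKM in neurons, 4.26-fold lower (-2.08). The gene of Ran itself, listed as ran and looked at, like sec13, for its spelling, had 1367 FPKM in NSC nuclei and 301 FPKM in neurons (-2.18). RanBP3, known as a cofactor of CRM1 in mammals, had 68.7 FPKM and 32.5 FPKM (-1.06). RanBPM, a scaffold protein whose link to Ran transport is loose, did not follow, with 67.7 FPKM in NSC nuclei and 81.2 FPKM in neurons (0.26).

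RanGap (FBgn0003346, arm 2L) was the single member called higher, with 409 FPKM in NSC nuclei and 1840 FPKM in neurons (2.17). Its reading cannot be separated from the tag, which contains RanGap sequence and is transcribed from a transgene in both strains under different drivers. RanGap made up 11.0% of the members' summed FPKM in NSC nuclei and 59.1% in neurons. With it, the sum went from 3698 FPKM in NSC nuclei to 3114 FPKM in neurons. Without it, the sum was 3289 FPKM in NSC nuclei and 1275 FPKM in neurons, 2.58-fold lower, while the number called lower stayed at 25 of the 36 others and none was called higher.

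The importin alpha genes, which encode the adaptors that read classical nuclear localization signals, were unlike each other. Pen (importin alpha-2; FBgn0287720, arm 2L) had 168 FPKM in NSC nuclei and 26.2 FPKM in neurons, 6.41-fold lower (-2.64), the lowest change of the 37 genes. Kap-alpha3 had 347 FPKM and 171 FPKM (-1.01), and was the most abundant adaptor in both libraries. Kap-alpha1 had 62.0 FPKM and 44.8 FPKM (-0.46), within 2-fold. The order therefore differed between libraries, with Pen 2.71 times Kap-alpha1 in NSCs and 0.584 times Kap-alpha1 in neurons. Of the summed FPKM of the 3 adaptors, Pen held 29.1% in NSCs and 10.8% in neurons, Kap-alpha3 60.2% and 70.7%, and Kap-alpha1 10.7% and 18.5%. Such shares do not change with the scaling of a library.

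Of 6 import receptors of the importin beta type 1 was called lower, a share like the 16.6% of all genes, and their median change was -0.61. The gene called was Ranbp9 (FBgn0037894, arm 3R), the fly IPO9, a carrier of histones and ribosomal proteins, with 54.4 FPKM in NSC nuclei and 11.5 FPKM in neurons, 4.74-fold lower (-2.15). Fs(2)Ket, importin beta itself and the partner of importin alpha, had 52.8 FPKM and 28.5 FPKM (-0.87). Trn, transportin, which imports RNA-binding proteins, had 67.8 FPKM and 39.3 FPKM (-0.77), and Trn-SR, which imports splicing factors of the SR family, had 20.6 FPKM and 14.8 FPKM (-0.45). The fly IPO11, Ranbp11, was the scarcest member at 4.57 FPKM and 3.99 FPKM (-0.16). msk (moleskin, the fly IPO7), which carries phosphorylated ERK into the nucleus, was slightly higher in neurons, with 45.4 FPKM in NSC nuclei and 50.9 FPKM in neurons (0.16). Its share of the summed FPKM of the 6 receptors was 18.5% in NSCs and 34.2% in neurons, where it was the most abundant of them, while the share of Ranbp9 was 22.2% and 7.71%.

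Among export receptors 3 of 4 were called lower, against 16.6% of all genes compared. emb (embargoed, the fly CRM1; FBgn0020497, arm 2L), the receptor for leucine-rich export signals, had 170 FPKM in NSC nuclei and 41.6 FPKM in neurons, 4.09-fold lower (-2.01). Cas, which sends importin alpha back to the cytoplasm, had 36.3 FPKM and 9.59 FPKM, 3.79-fold lower (-1.82). Ranbp21, the fly exportin of structured small RNAs, had 18.3 FPKM and 8.31 FPKM (-1.05). Ranbp16, the fly XPO7, had 38.4 FPKM in NSC nuclei and 33.1 FPKM in neurons (-0.21). As a result emb held 64.7% of the summed FPKM of the 4 exporters in NSCs and 44.9% in neurons, and Ranbp16 held 14.6% and 35.8%. Under TPM scaling the sign of Ranbp16 and of Ranbp11 turned positive, so their direction, counted as lower above, depends on the scaling.

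**Figure D3:**
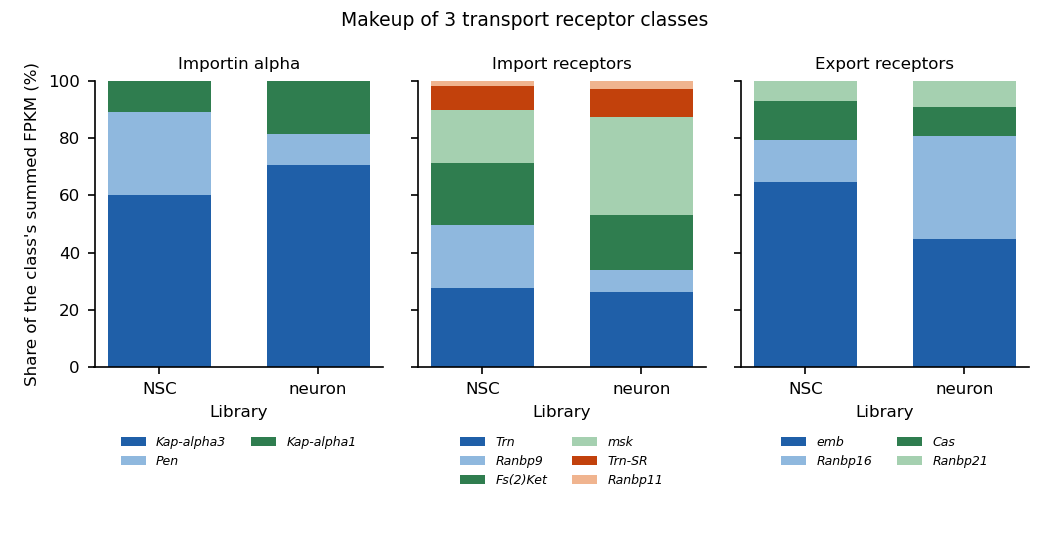
Share of each gene in the summed FPKM of its receptor class (%), in the NSC and the neuron library, for 3 importin alpha genes, 6 import receptors and 4 export receptors. The shares of Pen, Ranbp9 and emb are smaller in neurons, and those of Kap-alpha1, msk and Ranbp16 are larger.

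The members kept much of their order of abundance. Spearman's rho between NSC and neuron FPKM was 0.821 over the 36 genes other than RanGap, and 0.773 over all genes compared. Both are descriptions across genes measured in the same libraries. The median member stood at percentile 86.4 of all 13623 genes in NSCs and at percentile 72.2 in neurons, and 34 members had a lower percentile in neurons. In NSCs 36 members were above the median gene and in neurons 34 were.

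The share of genes called lower differed with the NSC level, so the members were set beside genes of like NSC level. Over the span of levels that the members other than RanGap covered in NSCs, 22.1% of 6839 genes were called lower and 15.2% higher. From 100 to below 300 FPKM, 41% of 705 genes were called lower, and all 6 members in that class were (Nup153, Nup358, Nup50, Nup62, Pen and emb). From 30 to below 100 FPKM, 28.2% of 2341 genes were called and 12 of 20 members. From 10 to below 30 FPKM, it was 15.3% of 2456 genes and 4 of 6 members. At 300 FPKM and above, 34.4% of 302 genes were called and 3 of 4 members, the exception being RanGap. The members' share was thus above that of all genes in these 4 classes, and the only member below 10 FPKM, Ranbp11, was not called, where 5.88% of 4354 genes were.

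**Figure D4:**
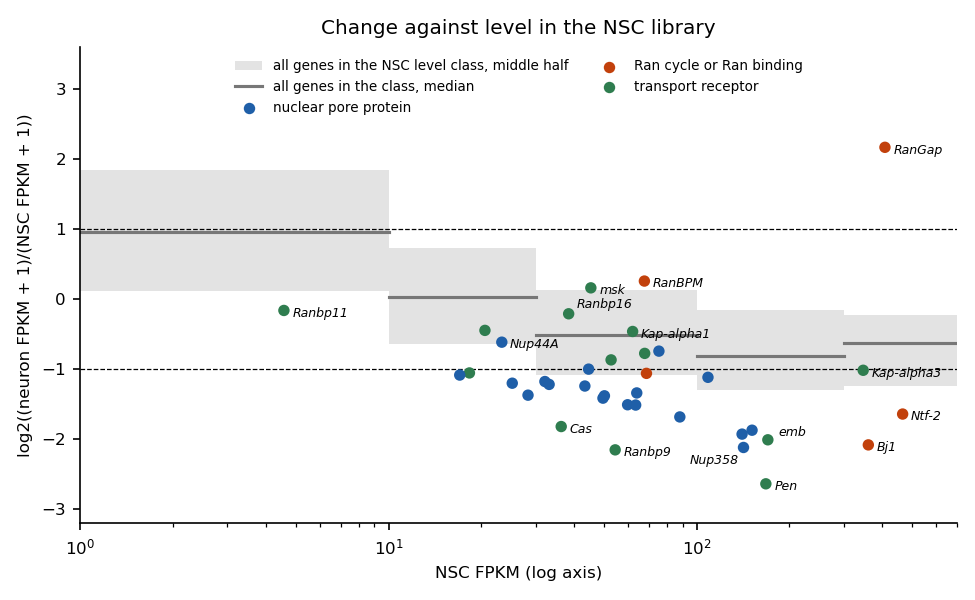
log2 change of each gene against its NSC FPKM (log axis), with the range from the 25th to the 75th percentile (grey band) and the median (grey line) of all genes in 5 classes of NSC FPKM, whose first class also holds genes below 1 FPKM and whose last is open-ended. Genes of most pore proteins lie under the band of their class, and RanGap, RanBPM and msk lie above it.

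Members were also set beside genes of like length, in 5 equal classes of genomic span. In the class of the longest genes, 5.1% of 2018 genes were called lower and the median change was 0.82, whereas 3 of the 5 members there (Mtor, Nup153 and Nup358) were called. The other 2, gp210 and Fs(2)Ket, were not. In the next class 14.6% of 2017 genes and 9 of 17 members were called, and in the middle class 19.6% of 2016 genes and 8 of 10 members. Of the shorter genes, 18.2% in the second class and 25.5% in the class of the shortest were called, and all 5 members there (Nup50, Nup58, Nup62, RanBP3 and Nup43) were.

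The depth behind these values was ample for all members. From the steps of the low FPKM values the libraries were estimated at about 65.3 and 69.5 M mapped fragments (M, 1000000), which puts the members at between 954 and 107198 fragments in NSCs and between 527 and 281353 in neurons. The counting error of a log2 change was then between 0.00653 and 0.0687 (SE), and it leaves out variation between preparations. For 4 members (Nup43, Nup205, Ranbp21 and Kap-alpha3) the 2-fold limit lay within the 95% counting interval of the log2 change. For the plain ratio of FPKM, with no pseudocount, it did so for 2 of them (Nup205 and Kap-alpha3). Strand was not stated for the counting, and 13 members share exonic bases with a gene on the other strand, over 10% of them in Ranbp11 (63.9%), Ntf-2 (20.5%), Nup154 (19.9%), Trn-SR (13.2%) and Nup54 (10.6%). Reads of such pairs cannot be told apart. Leaving these 5 out gave 22 of 32 members called lower.

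Other genes of the pathway, from a list of 54 symbols of which 19 are members and 3 had no row, gave the same direction. Of the 32 others 28 were compared, 17 were at least 2-fold lower, against 16.6% of all genes, none was 2-fold higher, against 26.9%, and the median was -1.14. The lowest changes were those of Ndc1 (listed as CG5857), a pore membrane protein, from 34.3 to 7.62 FPKM (-2.03), Nup37 (CG11875), from 22.2 to 4.95 FPKM (-1.96), and the inner ring gene Nup93-1 (CG11092), from 77.2 to 23.9 FPKM (-1.65). The highest change was that of sbr, the fly NXF1 and main receptor of mRNA export, with 49.2 FPKM in NSC nuclei and 60.2 FPKM in neurons (0.29), followed by Nxf3, scarce at 2.78 and 3.44 FPKM (0.23). Nxt1, the partner of sbr, was named after its values were seen and was lower in neurons, with 192 FPKM and 68.0 FPKM (-1.48). A grouping also made after the values were seen joined mRNA export genes with further genes of the NXF family, whose role in mRNA export was not examined. Of its 13 compared genes 10 were called lower, against 16.6% of all genes. None of 5 further import and export receptors and adaptors was.

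Lists of marker genes were also read in the 2 libraries. Among 8 NSC markers 4 were at least 2-fold lower in neurons, against 16.6% of all genes compared. Of these sca had 64.0 FPKM in NSC nuclei and 4.72 FPKM in neurons. The driver gene sca and l(1)sc, at 130 and 2.11 FPKM, differed most, mira and dpn were also called, ase and wor lay within 2-fold, and pros (0.05) and insc (0.53) were not lower. The FPKM of all 8 summed to 468 and 164. Markers other than sca and elav were named after their values were seen, so the marker counts are no independent check of the labels. Among 9 neuron markers 8 were at least 2-fold higher, against 26.9% of all genes compared. All 9 summed to 88.4 FPKM in NSC nuclei and 573 FPKM in neurons, while elav itself was 46.5 and 77.0 FPKM. The eye colour gene w had 130 and 146 FPKM. Genes of other tissues were present too and differed between the libraries: 5 muscle markers summed to 610 FPKM in NSC nuclei and 3141 FPKM in neurons, 4 hemocyte markers to 67.0 and 331 FPKM, 4 epidermis markers to 84.1 and 173 FPKM, 4 glia markers to 77.9 and 112 FPKM, and 4 germline markers to 54.0 and 33.7 FPKM. The 2 trachea markers summed to 36.6 FPKM in each library, with btl lower and trh higher in neurons. Not every marker went with the sum of its list. The hemocyte marker Hml was below 1 FPKM in both libraries. Of the glia markers gcm (-0.59) and loco (-0.01) were not higher in neurons, nor was svb (-0.22) of the epidermis. The germline marker vas was higher in neurons, with 6.48 and 15.6 FPKM (1.15). No marker was at 0 in either library. Their part in the levels of the transport genes was not tested.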

How the data were processed

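Nuclear RNA of affinity-purified nuclei was sequenced on the Illumina HiSeq 2000 from 1 NSC and 1 neuron library. The authors removed genomic DNA with DNase, aligned reads to FlyBase r5.43 transcripts with TopHat 1.3.1, and used uniquely mapped reads in Cuffdiff 1.3.0. The labels also name Bowtie, with no role, and the build dm3. The authors deposited 1 FPKM value per gene and library. Strandedness and any filter are not given in the sources used here. The labels speak of cross-linked embryos and the methods of RNA from embryos without crosslinking, which was left unresolved.

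Header lines recur between the 13623 genes of the table and were dropped, and all values were numbers of 0 or more. FPKM are not counts, and with 1 library per group no test was run. Changes were computed as log2 with a pseudocount of 1 FPKM, over genes with at least 1 FPKM in at least 1 library, in Python 3.11.15 with pandas 2.3.3 and scipy 1.17.1. A 2-fold change was called, and percentages over all genes are given as background. Depth was estimated from the whole-fragment steps of low FPKM times exonic length less 200 bp. Gene lengths, arms and FBgn identifiers came from Ensembl release 115 (BDGP6), with 13524 of the symbols matched by name or RefSeq synonym; the build differs from that of the authors, so no coordinates are given. Of the members 28 matched by name and 9 by synonym. Calls and the depth estimate were tested on simulated data. The simulated FPKM used the same length rule as the estimate, so this cannot show that the rule fits the deposited values.

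All members are named, with sca, elav and w, and of the other transport genes at most the 3 with the largest rise (only 2 were higher in neurons) and the 3 with the largest fall. Genes named after their values were seen are given as such. Members and lists were chosen with earlier results of these data known. Pseudocounts of 0.1 and 5 FPKM, TPM, median and upper quartile scaling, filters and a 1.5-fold threshold were tried as alternatives.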

Additional observations from a re-analysis of the deposited data

How the results depend on the processing

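The number of members at least 2-fold lower was 25 as reported, 26 with a pseudocount of 0.1 FPKM, 19 with 5 FPKM, 22 with upper quartile scaling, 25 with median scaling and 16 with TPM scaling, which raises every neuron value relative to its NSC value. The share of all genes called lower was 16.6% as reported, and 18.9% and 11.8% with the lower and higher pseudocount. It was 14.9% with upper quartile, 16.5% with median and 11.8% with TPM scaling. A total of 16 members were called lower under each of these settings. At 1.5-fold 30 members were lower, against 27.8% of all genes. The filters on low values left the count at 25, where 12.4% to 18.9% of all genes were called. The number called higher was 1 throughout, except for 0 with RanGap left out, while the share of all genes called higher ran from 16.1% to 37.6%. The median log2 change of the members was -1.27 and -1.03 with the lower and higher pseudocount, -0.96 with TPM and -1.13 with upper quartile scaling. The log2 ratio of the members' summed FPKM was -0.25 as reported, -0.17 with upper quartile scaling, 0.0195 with TPM scaling, where its sign turned, and -1.37 without RanGap. In 2 alternatives chosen after seeing the data, it was -0.61 with ran, sec13 and 10 further pore proteins added, where 33 of 49 genes were called lower, and -0.0936 without the 5 members that overlap other genes by over 10% of their exonic bases. No paired analysis was possible because there is 1 library per group, and for the same reason no replicate could be left out. The search of promoters for motifs was not run.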

Other observations

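The nuclear lamina and envelope, to which pores are anchored, did not move as one in a list of 11 genes. Of these 5 were at least 2-fold lower in neurons, against 16.6% of all genes compared, and 4 at least 2-fold higher, against 26.9%. The median log2 change was -0.77. The 4 higher genes include spag4, which was scarce at 0.052 FPKM in NSC nuclei and 1.35 FPKM in neurons. The chromatin-bridging factor gene baf was lowest, with 321 FPKM in NSC nuclei and 43.6 FPKM in neurons (-2.85), and next came the envelope protein gene kuk, with 567 and 106 FPKM (-2.41), and the LEM-domain gene Ote, with 62.2 and 14.7 FPKM (-2.01). The B-type lamin gene Lam had 374 and 218 FPKM (-0.77), within 2-fold. The A-type lamin gene LamC was higher in neurons, with 17.5 and 66.6 FPKM (1.87), as were the cytoskeletal linker genes Msp-300, with 10.6 and 89.2 FPKM (2.96), and klar, with 54.1 and 111 FPKM (1.02). Muscle markers, summing to 610 FPKM in NSC nuclei and 3141 FPKM in neurons, were higher in the same library as Msp-300 and LamC, and their part was not tested. These genes were picked from the list after their values were seen.

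Genes of DNA replication, whose products act in dividing cells, gave larger differences than the transport genes. Of 31 such genes 30 were at least 2-fold lower in neurons, against 16.6% of all genes compared. Their median log2 change was -2.06, with a range from -2.61 to -0.59. Their summed FPKM was 2751 in NSCs and 590 in neurons, 4.66-fold lower, compared with 2.80-fold for the 19 pore genes among the members. The 19 pore genes, from -2.12 to -0.61, lay within this range, whose upper end is the single gene Psf3, and Pen at -2.64 lay just below it. No test of the difference between the lists was run.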
